A study of Mus musculus with 24 samples.

Results

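The comparison described here sets calvarial osteoblasts of mice labelled as β-arrestin 2 knockout against wild-type osteoblasts on days 2 and 5 of culture, before the adipocyte genes that appear later in these cultures had risen. It rests on 12 of the 24 arrays of the series, 6 labelled knockout and 6 wild type, with 3 arrays for each genotype on each day. Arrays were chosen by genotype and day alone. The cells were released by collagenase and trypsin from the skull vault of pups aged 7 to 10 days, from C57BL/6J mice and from knockout mice on a C57BL/6J background, and were used at passage 2. They became confluent in growth medium with 10% serum and from day 3 received a medium that drives differentiation through ascorbic acid (50 mg/L) and β-glycerophosphate (5 mM). Day 2 cells of both genotypes had therefore had no differentiation medium, and day 5 cells of both genotypes had. Each replicate was a separate preparation of cells, per the labels. The labels give neither the sex nor the number of pups behind a preparation, nor the part of Arrb2 that was deleted. The array was the Affymetrix Mouse Gene 2.0 ST, hybridised with 100 ng of RNA per sample.

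β-arrestin 2, encoded by Arrb2, is an adaptor protein that binds G protein-coupled receptors once receptor kinases have phosphorylated them. It uncouples the receptor from its G protein, links it to the machinery of endocytosis and serves as a scaffold for other signalling enzymes. In osteoblasts it is known for limiting cAMP signalling downstream of the parathyroid hormone receptor. Early calvarial cultures hold proliferating progenitors and immature osteoblasts, which make collagen I matrix before they mineralise it.

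Values are log2 RMA signals, so a difference of 1 is 2-fold, and they are given as mean ± SD over 3 arrays. Differences are labelled knockout minus wild type, fitted over both days together with day as a factor in limma, for 14892 genes. A gene was called where its Benjamini-Hochberg adjusted p was under 0.05. The mean of the 12 early osteoblast genes tested lay between 8.91 and 9.29 on the 12 arrays, against array medians of 4.55 to 4.72 over all arrays. Each of these genes reached the array median on at least 1 of the 12 arrays. The collagen gene Col1a1 lay between 12.96 and 13.59. Runx2 and Spp1 were not analysed here.

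The targeted gene was the only gene called, and its signal was higher in the arrays labelled knockout. On day 2 Arrb2 read 5.73, 5.93 and 5.98 in the wild-type arrays, against 6.96, 7.42 and 6.89 in the arrays labelled knockout. On day 5 it read 5.16, 5.18 and 5.00 in the wild type, against 6.64, 6.79 and 6.64 in the arrays labelled knockout. The genotypes did not overlap on either day, and the gap between the groups exceeded the range within every group. The fitted difference was 1.39 (SE 0.114, 95% interval 1.15 to 1.64, limma adjusted p = 0.000172), which is 2.63-fold (2.22 to 3.11). It was called in each of the 31 alternative fits, with differences from 1.28 to 1.46 and adjusted p up to 0.0471. That highest p came from limma on 1 mean per preparation, 3 against 3. An exact two-sided permutation of the genotype over the 3 and 3 preparations gave p = 0.1, the smallest that 20 assignments allow.

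The direction of Arrb2 goes against the label, so "labelled knockout" is used throughout, and every direction is that of the arrays as labelled. The position of the array's probes relative to the deletion is unknown here, and a probe that lies outside it checks nothing. Arrb2 was represented by a single probe set. The difference was 1.21 on day 2 (limma adjusted p = 0.0474) and 1.58 on day 5 (adjusted p = 0.00265), and the day 2 call was lost in each fit that left out 1 of the 12 arrays. The change of the difference between the days, 0.37, did not pass the test (unadjusted p = 0.108). Over both genotypes Arrb2 fell by 0.59 from day 2 to day 5 (adjusted p = 0.0046).

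**Figure D1:**
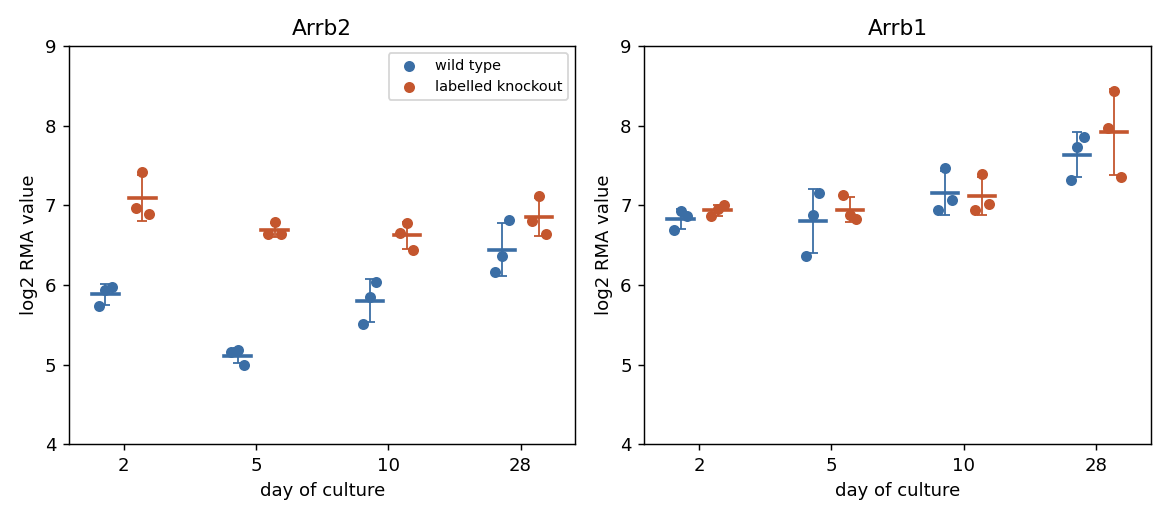
Log2 RMA value of Arrb2 (left) and Arrb1 (right) on each array against day of culture, for wild type (blue) and labelled knockout (orange). Points are arrays, bars the mean of 3 arrays and error lines 1 SD. Arrb2 lies at 6.64 or more in the 6 early arrays labelled knockout and at 5.98 or less in the 6 early wild-type arrays, while Arrb1 overlaps between the genotypes.

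Arrb1 encodes β-arrestin 1, the other widely expressed arrestin. It read 6.69, 6.93 and 6.87 in the wild type, against 6.86, 6.95 and 7.00 in the labelled knockout on day 2, and 6.36, 6.88 and 7.15 against 7.13, 6.88 and 6.83 on day 5. The arrays overlapped on both days, and the interval of the difference (0.13, -0.14 to 0.39) leaves out a change of the size seen for Arrb2. Of the 11 arrestin and G protein-coupled receptor kinase genes tested, only Arrb2 had an unadjusted p under 0.05. The receptor kinase genes Grk3, Grk4, Grk5 and Grk6 differed by 0.13, 0.29, -0.03 and 0.01. The α-arrestin genes Arrdc1, Arrdc2, Arrdc3 and Arrdc4 differed by 0.09, 0.03, -0.06 and 0.04, and Txnip, a member of the same family that inhibits glucose uptake, differed by 0.23. None of these 9 genes passed the test.

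Beyond Arrb2 no gene passed. The share called was 0.00672% of the genes tested. The lowest adjusted p after Arrb2 was 0.303, and 452 genes (3.04%) had an unadjusted p under 0.05, with 225 higher and 227 lower in the labelled knockout. The median gene had an SE of 0.12. For 14694 genes (98.7%) the 95% interval lay within 1 log2 unit of 0 on both sides, and for 13533 (90.9%) it lay within a 1.5-fold change either way. These values treat the day 2 and day 5 arrays of a preparation as independent, although they deviated together. With preparation as a random block 281 genes had an unadjusted p under 0.05 and 88.7% of intervals lay within a 1.5-fold change, and with 1 mean per preparation these were 242 genes and 87.0%. Differences were above 0 for 8288 genes (55.7%), with a median over all genes of 0.0168.

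Preparation and day carried more of the variance than genotype. Summed over the tested genes, day accounted for 35.4% of the sum of squares with 1 degree of freedom, the preparation within a genotype for 35.3% with 4, genotype for 5.12% with 1 and the day by genotype term for 3.65% with 1. The rest held 20.6% with 4 degrees of freedom. Evenly spread variance would give 9.09% to each degree of freedom and 36.4% to 4, so preparation lay near its even share. Arrays of the same day correlated as well across genotypes (0.966 to 0.989) as within a group (0.967 to 0.988). In the same fit 2138 genes (14.4%) were called between day 5 and day 2, of which 1170 rose and 968 fell.

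**Figure D2:**
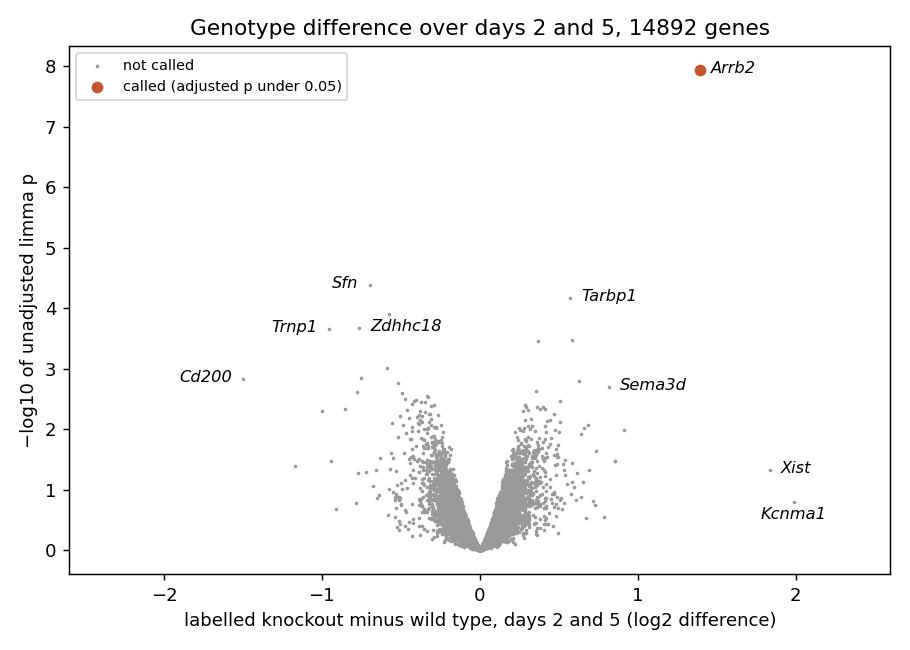
Unadjusted limma p, as −log10, against the log2 difference between labelled knockout and wild type over days 2 and 5, 1 point per gene for 14892 genes. Arrb2 is the only called gene and stands apart from all others in p, while Cd200, Kcnma1 and Xist lie farther from 0 without being called.

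None of the genes that followed Arrb2 in rank was called. They are given here as the 10 with the smallest p in each direction, leaving out predicted genes without a name. Sfn encodes 14-3-3σ, a phosphoprotein-binding adaptor that restrains the cell cycle. On day 2 it read 7.23, 7.68 and 7.56 in the wild type, against 6.93, 6.51 and 6.43 in the labelled knockout, and on day 5 it read 6.64, 6.62 and 6.84 against 6.21, 6.11 and 6.19. The arrays did not overlap on either day, but the difference of -0.70 (-0.95 to -0.45) had an adjusted p of 0.303. On days 10 and 28 the difference was 0.06.

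Tarbp1, a gene for a predicted RNA methyltransferase, read 7.26, 6.70 and 7.00 in the wild type, against 7.50, 7.53 and 7.57 in the labelled knockout on day 2. On day 5 it read 6.32, 6.55 and 6.64 against 7.14, 7.18 and 7.00. All early arrays labelled knockout of the same day lay above the wild type, with a difference of 0.57 (0.36 to 0.79, limma adjusted p = 0.342). On days 10 and 28 the difference was 0.77 (limma adjusted p = 0.132).

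Trnp1 encodes a nuclear protein known from neural progenitors. Its day 2 values were 7.34, 7.85 and 7.01 in the wild type, against 6.55, 6.68 and 5.67 in the labelled knockout, and its day 5 values were 7.33, 7.44 and 6.77 against 6.40, 6.35 and 6.35. Each labelled knockout array lay below each wild-type array of the same day. The early difference of -0.96 (-1.37 to -0.54) had a limma adjusted p of 0.551, and the late difference of -0.85 was called (adjusted p = 0.0083). Zdhhc18, which encodes a palmitoyltransferase, differed by -0.76 (-1.09 to -0.44, adjusted p = 0.551), also without overlap on either day. With all 24 arrays in 1 fit, which estimates the spread from all days, Sfn and Trnp1 were called lower (adjusted p = 0.0181 and 0.0361).

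The remaining higher-ranked genes in the labelled knockout included Sema3d (0.82, 0.36 to 1.28), which encodes a secreted guidance factor, Epha3 (0.63, 0.28 to 0.97), an ephrin receptor, and Axin2 (0.35, 0.15 to 0.56), a Wnt target and feedback inhibitor. Siglec1, a macrophage sialic acid receptor, differed by 0.51, and Cst7, which encodes a cathepsin inhibitor of immune cells, by 0.28. Slc35a5, a nucleotide sugar transporter gene, differed by 0.40. Prkag3, a regulatory subunit of AMP-activated kinase, Eda, the ectodysplasin ligand, and Tacr1, the substance P receptor, differed by 0.37, 0.36 and 0.29. Prkag3 lay near the floor: its early values were 4.20 to 4.47 in the wild type, under the array medians, and 4.56 to 4.76 in the labelled knockout. Axin2 has a second probe set with a lower signal, and there the difference was -0.018.

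Among the lower-ranked genes, Cd200, which encodes a surface ligand that inhibits myeloid cells and also marks skeletal stem cells, had the largest difference, -1.50 (-2.31 to -0.69). It read 6.98, 7.07 and 5.66 in the wild type, against 4.11, 5.73 and 5.12 in the labelled knockout on day 2, and 7.25, 7.19 and 6.53 against 4.24, 6.22 and 6.25 on day 5. The groups overlapped on day 2 and not on day 5, and the late difference was -0.03. Hdac1, the histone deacetylase gene, differed by -0.52 (-0.81 to -0.23) and Tmem88, which encodes an inhibitor of Wnt signalling, by -0.78 (-1.23 to -0.33). Slc7a7, an amino acid transporter gene, Cldn15, a claudin gene, and Cypt1 differed by -0.49, -0.34 and -0.59. Nrxn2, a neurexin gene, differed by -0.33, and by 0.05 on its second probe set.

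Of these 20 genes, 10 had arrays that did not overlap on either day, and 13 lay at or above the array median on all 12 arrays. They were chosen for their early p, so these counts describe the choice. The arrays of days 10 and 28 were not used to rank them. There 8 of the 20 had an unadjusted p under 0.05 in the same direction, against 6.35% of all genes tested (8.9% in either direction), and 1, Trnp1, was called. The labels do not say whether arrays of different days with the same number come from the same preparation. Kcnma1, high early only in replicate 2 of the labelled knockout, read 13.49 and 13.63 in that replicate on days 10 and 28. A deviation of 1 preparation can therefore recur later. The late arrays are not an independent check on genes chosen by their early values, in these counts or the next. Over all tested genes, 43 (0.289%) did not overlap on both early days in the same direction, 20 higher and 23 lower in the labelled knockout. The late difference had the same sign for 28 of these 43, and for 12 it also had an unadjusted limma p under 0.05. Both held for 6.35% of all genes tested, and the share with the same sign alone is not given here. Arrb2 is 1 of the 43.

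**Figure D3:**
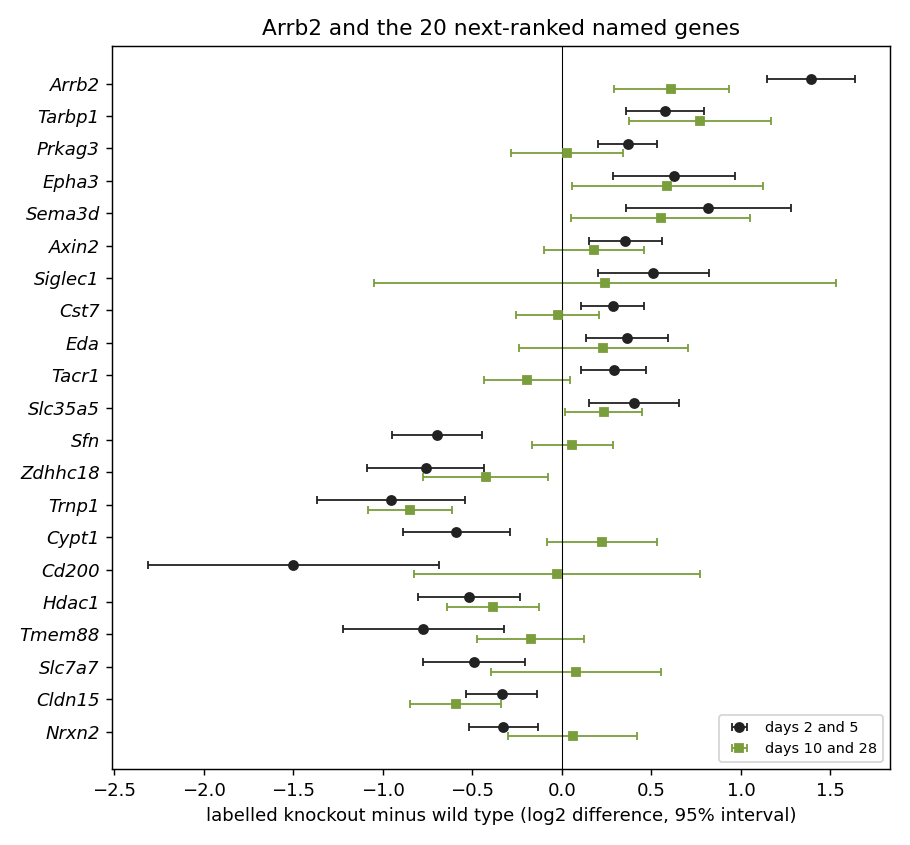
Log2 difference between labelled knockout and wild type with its 95% interval for Arrb2 and the 20 genes next in rank, on days 2 and 5 (black circles) and on days 10 and 28 (green squares). The early intervals leave out 0 because the genes were ranked on them; Trnp1, Tarbp1 and Cldn15 keep a late difference of similar or greater size, while Sfn and Cd200 lie near 0 later.

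Differences of at least 1 log2 unit were found in 5 genes (0.0336%): Arrb2, Cd200, Fabp7, Kcnma1 and Xist. For the last 2 a single preparation stood apart. Kcnma1, which encodes the large-conductance calcium-activated potassium channel, read 10.40 and 12.96 on days 2 and 5 in replicate 2 of the labelled knockout. It read between 4.34 and 7.38 in the other 10 arrays, and its difference of 1.99 had an interval of -0.90 to 4.87. Xist is described with the sex-linked genes. Fabp7, a fatty acid-binding protein gene of neural and progenitor cells, differed by -1.17 (-2.28 to -0.06) with overlap on both days. Kcnma1 and Fabp7 were named after their values were seen.

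Osteoblast genes gave no call and small medians. The lists named here group genes by textbook function and are described by counts, beside a median of 0.0168 over all genes and 3.04% of genes with an unadjusted p under 0.05. Of 12 early osteoblast genes tested, 9 had a difference above 0, with a median of 0.05 and 1 unadjusted p under 0.05. Of 12 late osteoblast genes, 10 were above 0, also with a median of 0.05. Msx2, a homeobox gene of skull growth, differed by 0.29 (unadjusted p = 0.0494). Sp7, the osteoblast transcription factor osterix, read 8.56, 8.18 and 8.63 in the wild type, against 7.90, 8.58 and 8.66 in the labelled knockout on day 2. On day 5 it read 6.30, 6.93 and 7.83 against 7.71, 7.47 and 7.80, which overlap, and its difference was 0.28 (-0.23 to 0.79).

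Alkaline phosphatase (Alpl, 0.06), osteocalcin (Bglap, 0.02), bone sialoprotein (Ibsp, 0.05) and collagen I (Col1a1, 0.06) differed by less than their spread. The intervals were wide for Alpl (-0.90 to 1.02) and narrow for Col1a1 (-0.18 to 0.30). Alpl varied between preparations: it read 6.76, 6.39 and 7.98 in the wild type, against 5.62, 7.30 and 7.62 in the labelled knockout on day 2. Mmp13, the collagenase of bone remodelling, differed by -0.10 with an interval of -1.38 to 1.18. Directions of these small differences turned in several alternatives.

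Receptors and their signalling targets did not separate the genotypes. Of 27 receptor genes known in bone, 9 differed above 0, with a median of -0.04 and no unadjusted p under 0.05. Pth1r, the parathyroid hormone receptor, read 7.46, 7.41 and 8.35 in the wild type, against 6.86, 7.66 and 8.09 in the labelled knockout on day 2. The groups overlapped there and on day 5, and the difference was -0.08 (-0.56 to 0.40). P2ry6, a nucleotide receptor gene, and Ackr3, a scavenger receptor for the chemokine CXCL12, had the smallest p of the list, with differences of 0.33 and -0.24.

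Of 18 genes induced by cAMP or parathyroid hormone, 9 were above 0, with a median of -0.00034. The smallest p belonged to Ramp3, which encodes a receptor accessory protein (-0.21), and Il6 (-0.50). The 15 RGS genes tested, whose proteins speed the shut-off of G proteins, had a median of -0.00074, and Rgs7 and Rgs18 differed by -0.19 and -0.17. Of 19 immediate early genes 15 were above 0, with a median of 0.06. Klf2, a transcription factor gene of that list, differed by 0.33 (unadjusted p = 0.009).

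Growth factor pathways likewise held no called gene. Among 31 Wnt genes, 16 were above 0 with a median of 0.02, and besides Axin2 the ligand gene Wnt10b had a small p (-0.24, unadjusted p = 0.0172). Of 13 Notch genes 4 were above 0, with a median of -0.07, and the ligand genes Jag2 (-0.31, unadjusted p = 0.00868) and Dll1 (-0.25, unadjusted p = 0.0152) were the 2 with an unadjusted p under 0.05. Of 22 BMP and TGF-β targets 15 were above 0 with a median of 0.10, led by Bmp2 (0.42) and Ccn1 (0.16). Of 18 p53 targets and CDK inhibitors 15 were above 0 with a median of 0.13, with Sesn2 at 0.16 and Bbc3 at 0.14. None of the 18 had an unadjusted p under 0.05.

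Over the 44 lists, which hold 716 different tested genes, only the arrestin list held a called member, and that member was Arrb2. Apart from the sex-linked genes the list medians ran from -0.20 to 0.23, and 35 of the 44 lay within 0.1 of 0. Extracellular matrix genes (29 tested, median 0.05), cholesterol synthesis genes (19 tested, -0.02), ribosomal protein genes (21 tested, -0.06) and cell cycle genes (32 tested, -0.04) had no called member. Some lists changed with time in these arrays. Of 24 genes of the ATF4 amino acid response 22 were called as falling from day 2 to day 5 (limma adjusted p under 0.05), with a genotype median of -0.05. Of 19 cholesterol synthesis genes 17 were called as rising. Among all 14892 genes tested 968 were called as falling and 1170 as rising.

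**Figure D4:**
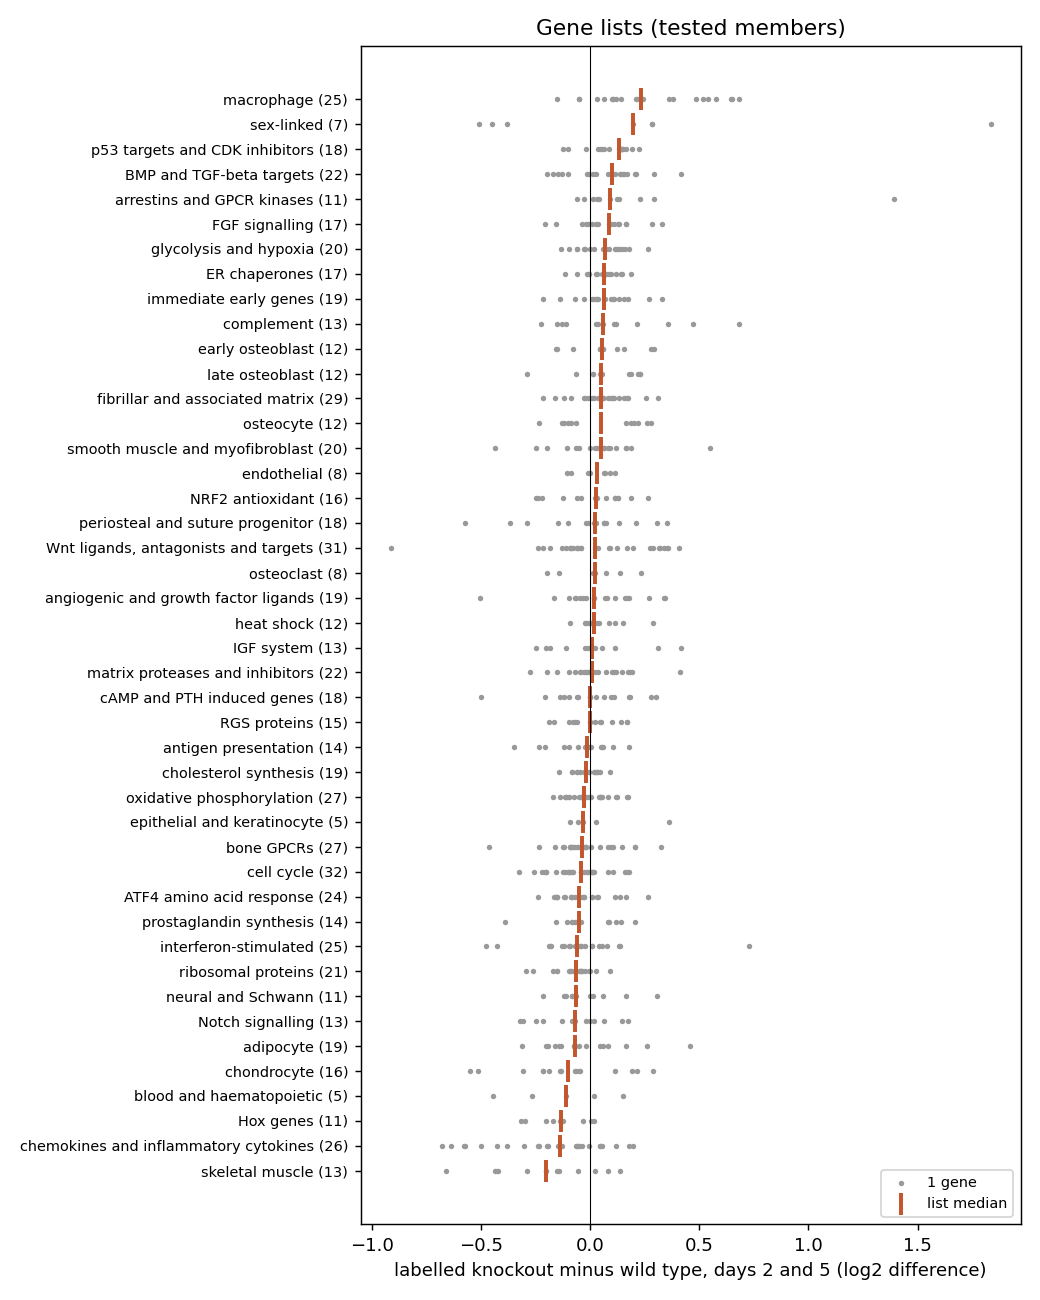
Log2 difference between labelled knockout and wild type over days 2 and 5 for the tested members of 44 gene lists, with the number tested in brackets; grey points are genes and orange bars the list medians. Medians run from -0.20 (skeletal muscle) to 0.23 (macrophage), and Arrb2 at 1.39 and Xist at 1.83 are the 2 points farthest to the right.

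Lists of markers of other cells held no called gene. Of 25 macrophage genes 22 were above 0, with a median of 0.23 and 2 with an unadjusted p under 0.05, C1qb, a subunit of complement C1q (0.68), and Ptprc, the leukocyte phosphatase CD45 (0.54). Ptprc reached the array median on only 1 of the 12 arrays. The mean of the list was 4.68, 4.56 and 4.67 in the wild type, against 4.73, 5.23 and 4.57 in the labelled knockout on day 2, and 4.90, 5.09 and 4.66 against 4.91, 6.09 and 4.62 on day 5. Only replicate 2 of the labelled knockout stood above the wild type on both days, and without its 2 arrays the list median was -0.04. The cells were measured in bulk, so a different number of cells of a type and a different amount of RNA per cell cannot be told apart.

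C1qb itself read 4.20, 4.15 and 3.99 in the wild type, against 4.84, 4.77 and 4.95 in the labelled knockout on day 2, and 4.49, 4.63 and 4.31 against 4.98, 6.08 and 4.25 on day 5. The genotypes were apart on day 2, where the wild-type values were under the array medians, and overlapped on day 5. Skeletal muscle genes went the other way: 3 of 13 were above 0, the median was -0.20, and 4 had an unadjusted p under 0.05, Des (-0.43), Tnnt3 (-0.29), Myh8 (-0.43) and Myh3 (-0.66). The mean of that list was 5.39 to 5.47 in the wild type and 4.98 to 5.47 in the labelled knockout on day 2, and 5.19 to 5.26 against 4.94 to 5.13 on day 5, so it was apart only on day 5. Des, which encodes desmin, and Tnnt3, a troponin gene, likewise overlapped between genotypes on day 2 and were lower in each day 5 array labelled knockout. How much these markers bear on other differences was not tested. Myh3 and Myh8 reached the array median on only 5 and 3 of the 12 arrays, and were named after their values were seen.

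Of 26 chemokine and cytokine genes 6 were above 0, with a median of -0.14. Cxcl12, a chemokine of stromal progenitors, read 10.17, 9.99 and 10.09 in the wild type, against 8.41, 9.56 and 9.44 in the labelled knockout on day 5, but 8.75, 8.62 and 9.18 against 7.83, 9.29 and 8.84 on day 2. The groups separated on day 5 and overlapped on day 2, and the difference was -0.57 (unadjusted p = 0.0455). Interferon-stimulated genes varied too much between preparations to bound a difference. Their list mean on day 5 was 8.0, 7.02 and 5.59 in the wild type, against 5.79, 7.77 and 6.62 in the labelled knockout, while it lay between 5.25 and 5.69 on day 2. The median distance from a difference to the end of its interval was 0.83 in this list, against 0.257 over all genes. Of its 25 members 16 were called as rising from day 2 to day 5 (limma adjusted p under 0.05), against 1170 of all 14892 genes.

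Adipocyte genes were low in both genotypes at this stage. The mean of the 19 genes tested lay between 5.53 and 5.92 on the 12 early arrays, with a genotype median of -0.07 and 6 of 19 above 0. On day 28 the same mean was 8.27 to 9.73. Adipoq, the adipocyte hormone adiponectin, lay between 3.92 and 4.42 on all 12 early arrays, below the array medians, and differed by -0.13. Fabp4, the adipocyte fatty acid-binding protein, read 4.24, 4.17 and 5.59 in the wild type, against 3.82, 5.17 and 4.98 in the labelled knockout on day 2, which overlap, and differed by -0.20 (-0.91 to 0.51). Between day 2 and day 5, 1 of the 19 genes was called as rising and 2 as falling (limma adjusted p under 0.05). Over all genes tested 14.4% were called between these days.

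Sex-linked genes differed between preparations of the same genotype, and none was called. Xist, the RNA of the inactive X chromosome, read 3.56 and 4.09 in replicate 2 of the wild type on days 2 and 5 and between 7.72 and 9.11 in the other 10 early arrays. Its genotype difference of 1.83 (0.03 to 3.64, unadjusted p = 0.0465) was 0.36 without that preparation. Of the 7 sex-linked genes tested, 4 had an unadjusted p under 0.05, all higher in the labelled knockout and all X-linked: Xist, Kdm6a, Kdm5c and Ddx3x. The Y-linked Eif2s3y read 3.80 and 5.94 in replicate 3 of the wild type and 7.53 to 8.32 in its other 4 arrays, and 5.59 to 7.12 in the labelled knockout. Eif2s3y, Kdm5d and Uty differed by -0.51, -0.45 and -0.38, each with overlap. Kdm6a, Kdm5c and Ddx3x, which escape inactivation, differed by 0.28, 0.28 and 0.20 (unadjusted p = 0.0301, 0.0453 and 0.0468). Without the 2 arrays of replicate 2 of the wild type these differences were 0.14, 0.28 and 0.24. Kdm5c and Ddx3x did not overlap between genotypes on day 2, while Kdm6a overlapped on both days and the other two on day 5. Ddx3x was named after its values were seen. With the Xist value as a covariate Arrb2 differed by 1.42 (limma adjusted p = 0.00306).

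**Figure D5:**
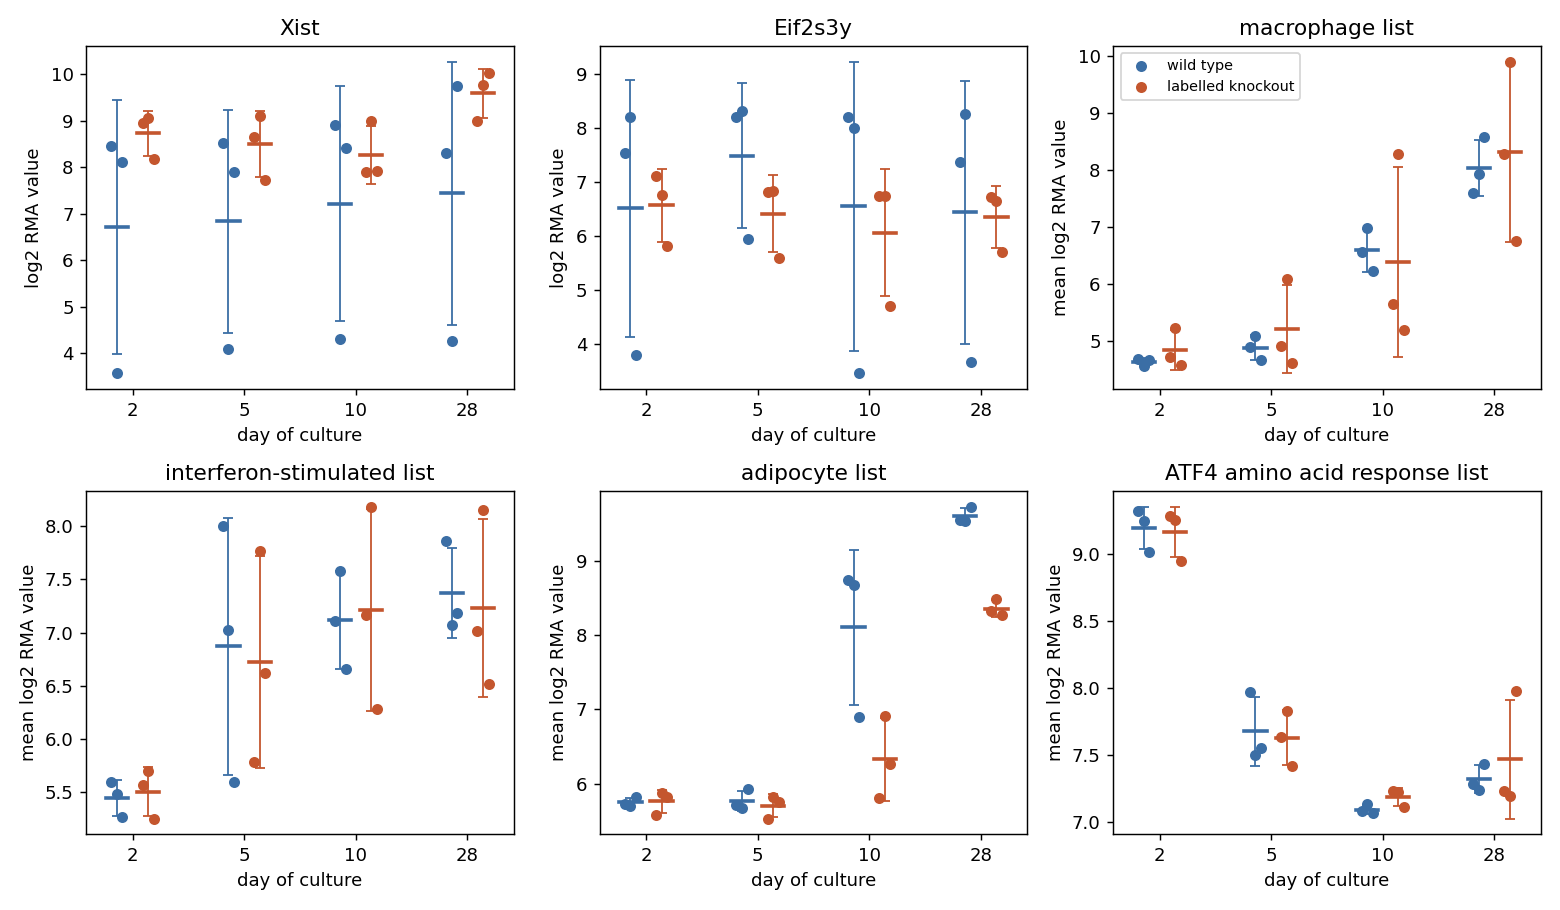
Log2 RMA value of Xist and Eif2s3y, and mean log2 value of 4 gene lists, on each array against day of culture, for wild type (blue) and labelled knockout (orange); points are arrays, bars means of 3 arrays and error lines 1 SD. Xist is low in 1 wild-type array on each day, 1 array labelled knockout is highest for macrophage genes on each day, and the adipocyte mean is 5.92 or less on days 2 and 5.

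The genotype difference was not shown to change between days 2 and 5. No gene was called for the day by genotype term in limma (0%), and 211 genes (1.42%) had an unadjusted p under 0.05. The 2 smallest p in each direction belonged to Hgf, Saxo2, Mrm3 and Sh2d2a. Hgf, which encodes hepatocyte growth factor, read 5.82, 5.35 and 5.43 in the wild type, against 5.47, 6.18 and 6.07 in the labelled knockout on day 2. On day 5 it read 9.12, 8.95 and 8.26 against 6.98, 8.08 and 7.13. The groups overlapped on day 2 and were apart on day 5, and the change of the difference, -1.76, had an unadjusted p of 0.00155. For Saxo2, Mrm3 and Sh2d2a it was -0.67, 0.82 and 0.66. On each day taken alone 1 gene (0.00672%) was called, Arrb2.

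On days 10 and 28 the same model called 26 genes (0.175%), 3 higher and 23 lower in the labelled knockout. At the early days none of the 26 was called, where 0.00672% of all genes tested were. An unadjusted early limma p under 0.05 was found for 5 of the 26, against 3.04% of all genes tested. For the 23 lower genes the late differences ran from -1.96 to -0.60 with a median of -1.06, and the early ones from -0.96 to 0.16 with a median of -0.09. Arrb2 was not among the 26: its late difference was 0.61 (0.29 to 0.93, limma adjusted p = 0.143). The difference of Arrb2 between early and late days, 0.78, did not pass the test (adjusted p = 0.182). With preparation as a random block the late count was 8, and it ranged from 6 without replicate 1 of the day 28 wild type to 96 without replicate 3 of the day 10 wild type.

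The genotype difference itself was called as different between early and late days for 2 genes (0.0134%), Dgat2 and Myh8. Dgat2, which encodes the last enzyme of triglyceride synthesis, read 7.40, 6.97 and 7.37 in the wild type, against 7.12, 7.31 and 7.20 in the labelled knockout on day 2, and 5.83, 5.86 and 6.46 against 6.57, 6.55 and 6.11 on day 5. The genotypes overlapped on both days, with a difference of 0.16 (-0.15 to 0.47), while the late difference was -1.77. Myh8, the perinatal skeletal myosin, differed by -0.43 early and 2.85 late. Pparg, the adipocyte transcription factor, was called lower late (-1.34) and differed by -0.16 (-0.77 to 0.45) early, but the change between early and late did not pass the test (adjusted p = 0.717). Dgat2, Myh8 and Pparg were named after their values were seen.

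None of the tested genes next to Arrb2 on chromosome 11 was called. Over all genes tested 0.00672% were called, so the lack of a call is not particular to these neighbours. An unadjusted limma p under 0.05 was found for 3.04% of all genes. Among the 20 genes on each side in the order of the gene table, 20 were tested, none was called in limma and 1 had an unadjusted p under 0.05, Bcl6b, a transcriptional repressor gene (-0.27). Differences ran from -0.27 to 0.29 with a median of -0.03, and 7 of 20 were above 0. The nearest tested genes were Pelp1 (0.06) and Med11 (-0.23). Among 100 genes on each side 92 were tested, none was called, and 2 higher and 3 lower had an unadjusted p under 0.05. There the differences ran from -0.78 for Tmem88, also among the lower genes next in rank to Arrb2, to 0.86 for Slc13a5, a citrate transporter gene. Bcl6b, Pelp1, Med11 and Slc13a5 were named after their values were seen.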

How the data were processed

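The authors deposited log2 expression values, 1 per probe set and array, made by RMA; the submitters' processing notes name Affymetrix Expression Console for it, without a version or an array library build. RMA equalises the arrays' distributions, which hides a change shared by most genes. Precision is limited by how many arrays there are. Of 41345 probe sets, 23521 had exactly 1 gene symbol in the platform annotation, 1814 had several and 16010 had no listed gene. For the 1082 genes with more than 1 probe set the one with the highest mean over 24 arrays was kept, giving 22180 genes, and 14892 that reached their array's median in at least 3 of the 24 arrays were tested. A further gene table (GRCm38.p6) was matched for 23328 probe sets and gave current symbols and the order of neighbouring genes only.

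The log2 values were used as deposited and fitted in R 4.3.3 by lmFit and eBayes of limma 3.58.1 (day plus genotype, 9 residual and 4.43 prior degrees of freedom); p-values are two-sided, with Benjamini-Hochberg adjustment over all genes tested. Group means were fitted for single days and their difference, days 10 and 28 were fitted the same way, and the early minus late contrast used all 24 arrays. Scripts were tested on simulated data. Same-numbered arrays of days 2 and 5 deviated together within a genotype (correlations wild type 0.25, 0.26 and 0.35, labelled knockout 0.20, 0.41 and 0.15). The numbers therefore pair arrays there, as the data show and the labels do not state. Between genotypes same-numbered arrays correlated at 0.33, 0.0014 and 0.52 on day 2, where other pairs ran from -0.50 to 0.22. On day 5 they correlated at -0.08, 0.08 and 0.14. Numbers 1 and 3 thus deviated together across genotypes on day 2 only, and what they share is not labelled. The members and gene lists were chosen with earlier results of these data known. Named genes were all those called, the 10 smallest p in each direction without symbols of predicted or unnamed genes, the 2 smallest p of each list described, the 2 smallest p in each direction for the change between days, and a set of arrestin, osteoblast, adipocyte and sex-linked genes; others are marked as named after their values were seen. Alternatives varied the arrays, blocks, filter, scaling, spread estimate, weights, probe set and Xist as a covariate.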

Additional observations from a re-analysis of the deposited data

Results flagged for a closer look

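For 2 genes the genotype difference at the early days differed from that at days 10 and 28 by limma's test of the difference itself. For Dgat2 the early minus late value was 1.93 (adjusted p = 0.00801), from an early difference of 0.16 and a late one of -1.77. For Myh8 it was -3.27 (adjusted p = 0.0109), from -0.43 early and 2.85 late. Late Myh8 values were 6.58, 7.29 and 7.99 on day 10 and 7.35, 5.11 and 7.78 on day 28 in the labelled knockout, against 3.53 to 4.50 in the wild type. Both calls held in each alternative run for them. Groups of 3 arrays are too small for a test of single outlying arrays.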

How the results depend on the processing

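The early comparison was refitted under 31 alternatives. Arrb2 was called in all of them, and the count of called genes was 1 in each except the fit of all 24 arrays, where it was 3, with Sfn (-0.70) and Trnp1 (-0.96) added. With preparation as a random replicate block the early count was 1, and with preparation means it was 1. A fixed replicate block by number across genotypes also gave 1, though the labels do not say that a number means the same in both. The single call on day 2 was lost without the filter on dim genes (0 genes) and in the 12 fits without 1 array (0 genes in each). The late count was 8 with the random replicate block and 6 to 96 without single arrays. The early minus late count was 13 with that block and 2 to 49 without single arrays, the highest without replicate 3 of the day 10 wild type.

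In the early comparison no gene other than Arrb2, Sfn and Trnp1 was called in any of these alternatives. Small differences turned sign. With arrays centred on their median Bglap was -0.019. With array weights Alpl was -0.13, Ibsp -0.0074, Col1a1 -0.035 and Mmp13 0.020. With the probe set of the lowest mean Axin2 was -0.018, Nrxn2 0.050 and Alpl -0.0020. With Xist as a covariate Ibsp was -0.14, Eif2s3y 0.028, Kdm5d 0.13 and Uty 0.17. Without single arrays or preparations, genes whose difference turned ranged from -0.35 to 0.35 (Ibsp), -0.40 to 0.56 (Alpl), -0.17 to 0.15 (Bglap), -0.31 to 0.17 (Pth1r), -0.64 to 0.55 (Mmp13), -0.067 to 0.15 (Col1a1), -0.019 to 0.22 (Arrb1), -1.39 to 0.24 (Uty), -1.58 to 0.12 (Eif2s3y), -1.34 to 0.18 (Kdm5d) and -0.54 to 0.17 (Fabp4). Of 1364 list medians refitted, 3 moved by more than the spread between arrays. The 95% interval of the median gene reached 0.257 log2 units either way before any adjustment over genes. Of 86 genes with a difference over 0.5 in either direction, 1 was called.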
